A study of Homo sapiens with 8 samples.

Results

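The 33 genes of cholesterol synthesis and sterol regulation were followed in CAKI1 cells, a line grown from a human renal carcinoma, after exposure to iron-loaded lipocalin-2 (hLcn-2). The genes were chosen by symbol, and 32 of them were analysed out of 16782 genes measured. CYP51A1 was not analysed here. RNA was measured in 4 control samples, which received no hLcn-2, and in 4 samples that received hLcn-2 at 5 µg/mL for 24 h. Cells of both groups had been serum starved from 24 h before the stimulation. The hLcn-2 was a recombinant human protein made in bacteria and loaded with iron through catechol. All samples were of the same cell line, and the samples of each group are numbered 1 to 4.

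Only the 3′ end of each transcript was read, and copies of the same molecule were collapsed by molecular tags, so that each read stands for 1 molecule. The depth was between 1501563 reads in control 4 and 13953090 in control 1. Values are normalized counts on the CPM scale (reads scaled to a common library size), on which 3 reads were worth between 0.211 and 1.98 CPM. Of 10 markers of renal epithelium and carcinoma, 9 were measured, with a summed level of 3160 to 4034 CPM in controls and of 3519 to 4268 CPM after hLcn-2. VIM, MET and CDH2 made up most of it (means of 1664, 956 and 416 CPM in controls), whereas PAX2 was low (2.52 CPM). Of the 15 markers of leukocytes, endothelium, fibroblasts and hepatocytes, 3 were measured, each at no more than 1.83 CPM in any sample. The number of cells and the RNA per cell cannot be told apart in such bulk samples.

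Cells build cholesterol from acetyl units. The enzymes of the mevalonate arm make farnesyl diphosphate, and those of the sterol arm close and trim the sterol rings. Transcription of most of these enzymes is driven by the SREBP proteins, the products of SREBF1 and SREBF2. SCAP carries SREBP from the endoplasmic reticulum to the Golgi, where the proteases of MBTPS1 and MBTPS2 release the active factor, and INSIG1 and INSIG2 hold SCAP back when sterols are plentiful. INSIG1 is itself a target of SREBP. Oxysterols activate the LXR receptors (NR1H2 and NR1H3), which raise the cholesterol exporters ABCA1 and ABCG1 and MYLIP, a ubiquitin ligase that removes lipoprotein receptors.

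The promoters of both INSIG genes are shown because INSIG1 was called by edgeR and DESeq2 and INSIG2 holds the same role, and those of TM7SF2, MVK and LSS because these had the largest log2 fold changes among synthesis enzymes with a promoter in the RefSeq table (GRCh38.p14). Each line gives the 250 bases before the start of the main transcript, 5′ to 3′ on the strand of the gene, and each window also meets an exon of another transcript of its gene. Capitals mark matches to CCAAT, the core of NF-Y sites, to CACGTG, the E-box, and to TCACNCCAC, a sterol regulatory element, on either strand. No capital runs overlapped. The window of INSIG1 lies at chr7:155297628-155297877 (plus strand), INSIG2 at chr2:118088221-118088470 (plus), TM7SF2 at chr11:65111622-65111871 (plus), MVK at chr12:109573544-109573793 (plus) and LSS at chr21:46228775-46229024 (minus).
INSIG1: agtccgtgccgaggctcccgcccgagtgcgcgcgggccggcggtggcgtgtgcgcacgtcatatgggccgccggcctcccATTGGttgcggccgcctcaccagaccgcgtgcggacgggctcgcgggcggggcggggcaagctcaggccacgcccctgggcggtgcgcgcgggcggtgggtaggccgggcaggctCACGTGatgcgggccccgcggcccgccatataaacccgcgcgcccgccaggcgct
INSIG2: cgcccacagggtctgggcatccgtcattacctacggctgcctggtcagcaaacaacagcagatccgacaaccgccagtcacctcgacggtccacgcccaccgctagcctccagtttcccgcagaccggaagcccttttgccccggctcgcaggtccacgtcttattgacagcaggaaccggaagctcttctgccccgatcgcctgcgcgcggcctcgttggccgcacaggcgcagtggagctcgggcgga
TM7SF2: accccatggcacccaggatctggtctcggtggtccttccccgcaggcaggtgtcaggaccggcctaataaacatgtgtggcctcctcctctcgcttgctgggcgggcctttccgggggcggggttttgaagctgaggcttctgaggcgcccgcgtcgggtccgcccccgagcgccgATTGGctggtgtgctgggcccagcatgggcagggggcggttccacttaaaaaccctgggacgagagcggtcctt
MVK: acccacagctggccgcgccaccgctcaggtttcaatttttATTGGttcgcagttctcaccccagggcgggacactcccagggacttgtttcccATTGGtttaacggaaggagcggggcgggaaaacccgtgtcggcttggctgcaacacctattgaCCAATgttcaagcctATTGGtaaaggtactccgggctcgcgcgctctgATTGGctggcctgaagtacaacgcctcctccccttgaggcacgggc
LSS: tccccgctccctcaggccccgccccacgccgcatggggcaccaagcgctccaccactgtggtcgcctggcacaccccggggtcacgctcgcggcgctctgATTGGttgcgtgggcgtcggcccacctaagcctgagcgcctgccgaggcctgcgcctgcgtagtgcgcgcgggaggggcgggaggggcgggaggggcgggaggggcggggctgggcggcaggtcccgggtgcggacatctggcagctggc

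The INSIG1 window held 1 CCAAT match and 1 E-box, whereas that of INSIG2 held neither. That of MVK held 5 CCAAT matches, and those of TM7SF2 and LSS 1 each. Windows were given for 28 members, with 1 used for each, the one nearest the start of its main transcript. No such choice was made for the shares over all windows, so these are not a like-for-like background. Of the 14 windows of synthesis enzymes 13 held CCAAT, PMVK being the exception, as did 5 of the 14 windows of the other members and 32.0% of all 35116 promoter windows of this length. GGGCGG, a core of Sp1 sites, was present in 13 of 14, in 12 of 14 and in 42.6%, respectively. The sterol regulatory element in the letters given was present in the window of SREBF2 alone among the members and in 0.883% of all windows, and the E-box in those of SC5D, INSIG1, SCAP and ABCA1 and in 6.34% of all windows. Such matches describe the letters only and are no proof of binding. SQLE, FDFT1, ACAT2 and ABCG1 have no window here.

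The question was whether hLcn-2 changed the expression of these genes. Most of them were slightly higher after hLcn-2. Of the 32 members 28 had a higher mean of log2(CPM + 1) and 4 a lower one, namely PMVK, MVD, SCAP and NR1H3. With all samples, 28 or 29 of the 32 were higher under each other scaling and test (SCAP turned under TMM factors and with the block in edgeR and DESeq2, MVD in edgeR and DESeq2 without it), and 24 were higher without control 3 and 29 without both samples numbered 3. The median log2 fold change of the members was 0.18, against 0.0008 over the 15593 genes tested, of which 50.2% were higher. The members' median was 0.10 without control 3. None of the members passed the threshold without regard to sample number (limma, Benjamini-Hochberg adjustment over all genes tested, adjusted p of 0.05), nor did any other gene, so the share of genes called was 0.0%. At an unadjusted p of 0.05 or less limma found 3 members, TM7SF2, INSIG1 and STARD4, and 355 genes in all.

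Because samples of the same number deviated together, a fit with the number as a block was run as well. Limma with the block called 0 of the members, at a background of 0.218% of genes called higher and 0.0641% called lower, while 14 members had an unadjusted p of 0.05 or less. Of these, 13 were higher (40.6% of members, against 6.65% of all genes) and 1, PMVK, was lower (3.12%, against 5.53%). EdgeR (quasi-likelihood, recovered reads, with the block) called 2 members, INSIG1 and MVK, both higher, where it called 1.12% of genes higher and 0.372% lower. DESeq2 with the block called the same 2 members, at 0.84% of genes higher and 0.269% lower, although 6349 genes, TM7SF2 and ABCG1 among them, received no adjusted p-value from it. Without the block edgeR and DESeq2 called 0 genes each, with 324 and 284 genes at an unadjusted p of 0.05 or less. Within the same-numbered pairs, 12 members were higher after hLcn-2 in 4 of 4 pairs (37.5%, against 9.93% of all genes) and 1 was lower in all of them (3.12%, against 10.9%). The 4 hLcn-2 samples lay above the 4 controls for 2 members, TM7SF2 and STARD4 (0.891% of all genes), and below them for 0 members (0.988% of all genes). The shares of all genes were not matched to the members in abundance. The members share the same samples and are not independent of each other, so no test was made of these shares.

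**Figure D1:**
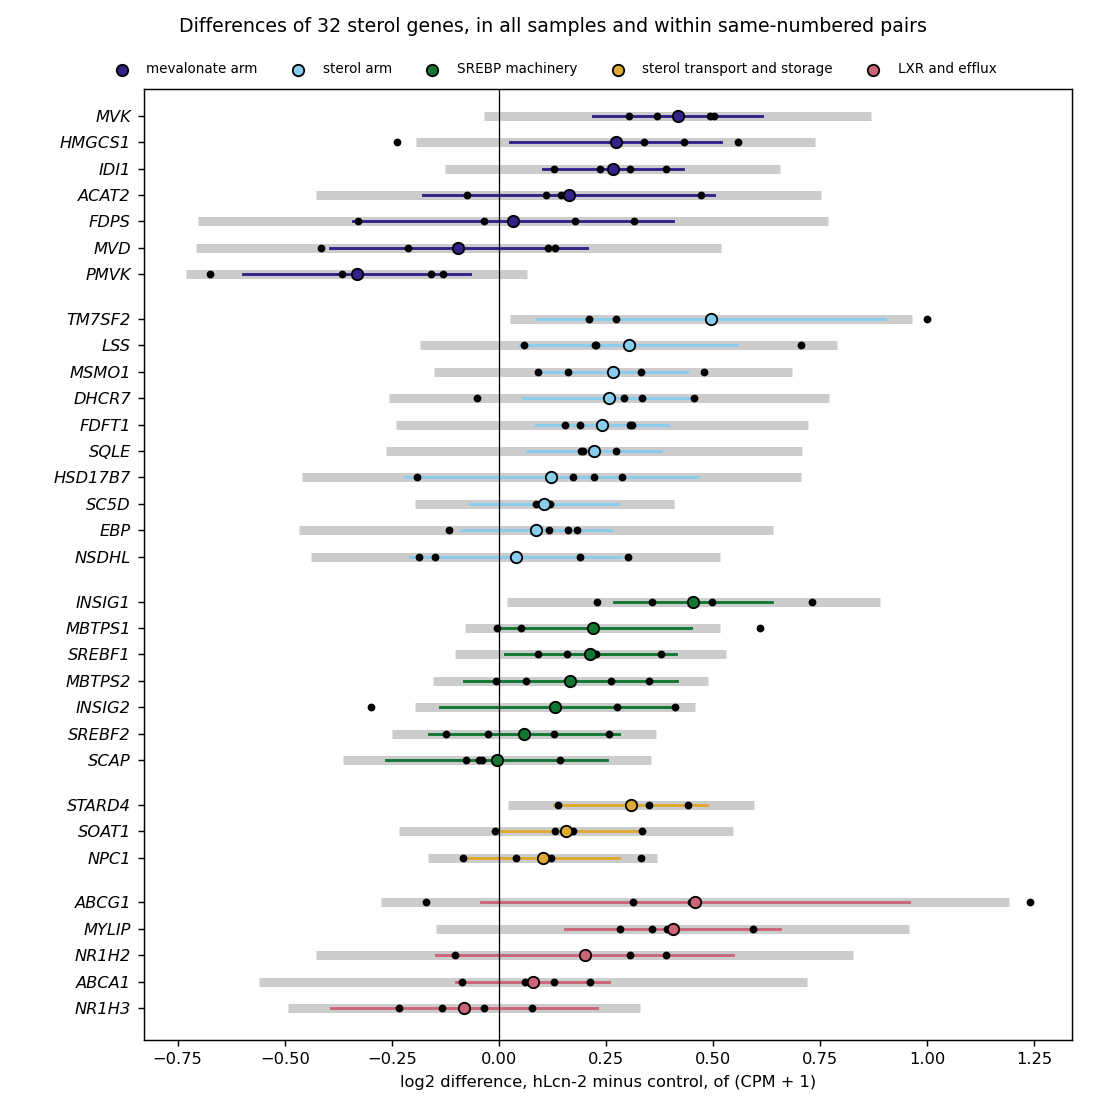
Log2 difference between hLcn-2 and control samples, of CPM + 1, for the 32 members grouped by role. Large points are the fold changes over all samples, grey bars their 95% intervals without the block, thin coloured bars those with the block, and small black points the 4 same-numbered pairs. The interval without the block lies above 0 for TM7SF2, INSIG1 and STARD4, and that with the block lies above 0 for 13 members and below 0 for PMVK.

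INSIG1, the sterol-sensing brake on SREBP, was 1066, 931, 612 and 1152 CPM in controls 1 to 4 and 1249, 1315, 1017 and 1476 CPM in hLcn-2 samples 1 to 4. The groups overlapped, since hLcn-2 sample 3 lay below controls 1 and 4, but each hLcn-2 sample lay above the control of its own number. The mean was 940 ± 237 CPM in controls and 1264 ± 191 CPM after hLcn-2 (SD, n = 4). The log2 fold change came to 0.45, with a standard error of 0.20 and a 95% interval of 0.02 to 0.89 without the block. With the block these were 0.085 and 0.27 to 0.64, and the differences in the pairs ran from 0.23 to 0.73. Limma gave an adjusted p of 1.0 without and 0.051 with the block, while edgeR gave 0.0075 and DESeq2 0.0017, both with the block. The exact permutation test over the 70 regroupings of 4 samples against 4, which ignores the sample numbers, gave p = 0.086 (two-sided). In limma with the block, leaving out pair 1 or pair 4 gave an adjusted p of 0.046 or 0.042, and leaving out pair 2 or pair 3 gave 0.24 or 0.21. INSIG1 lies at chr7:155297776-155310235 (GRCh38, GENCODE 44, plus strand), and its reads come from the end of a transcript of 6 exons with a 3′ UTR of 1965 nt. No exon of another gene overlaps it, and it was counted from at least 1749 reads in each sample.

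The other members of the SREBP machinery differed less. INSIG2, which shares the role of INSIG1, was 35.0, 38.2, 44.6 and 33.6 CPM in controls and 42.6, 42.1, 36.0 and 45.0 CPM after hLcn-2. Only hLcn-2 sample 3 lay below its control, and the log2 fold change was 0.13 (standard error 0.15, 95% interval -0.20 to 0.46). SREBF1, which encodes the SREBP form best known for lipogenic genes, was 64.0, 64.4, 46.9 and 61.2 CPM in controls and 75.0, 68.6, 61.2 and 68.5 CPM after hLcn-2. It was higher in 4 of 4 pairs, by 0.09 to 0.38 on the log2 scale, with an adjusted p of 0.38 in limma with the block. Exons of RAI1 lie on the opposite strand over its last exon, as exons of other genes do for ACAT2, HMGCS1, FDPS, LSS and NPC1, and whether reads were counted by strand is not given in the sources used here.

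SREBF2, which encodes the form best known for cholesterol genes, was 52.4, 40.3, 46.4 and 46.1 CPM in controls and 51.5, 48.3, 42.5 and 50.4 CPM after hLcn-2. It was higher in pairs 2 and 4 and lower in pairs 1 and 3, with a log2 fold change of 0.06 (95% interval -0.25 to 0.37), and its sign turned when control 2 or pair 2 was left out (-0.0045 and -0.0072). SCAP was 24.8, 19.8, 27.7 and 22.4 CPM in controls and 24.0, 22.0, 26.2 and 21.7 CPM after hLcn-2. This was the smallest difference among the members, -0.0055 on the log2 scale (95% interval -0.37 to 0.35), and its sign turned under 10 of 23 alternatives. The protease genes MBTPS1 and MBTPS2 had log2 fold changes of 0.22 and 0.17, each higher in 3 of 4 pairs. The median of the 7 genes of the machinery was 0.17, and it was 0.099 without control 4 and 0.089 without pair 4.

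**Figure D2:**
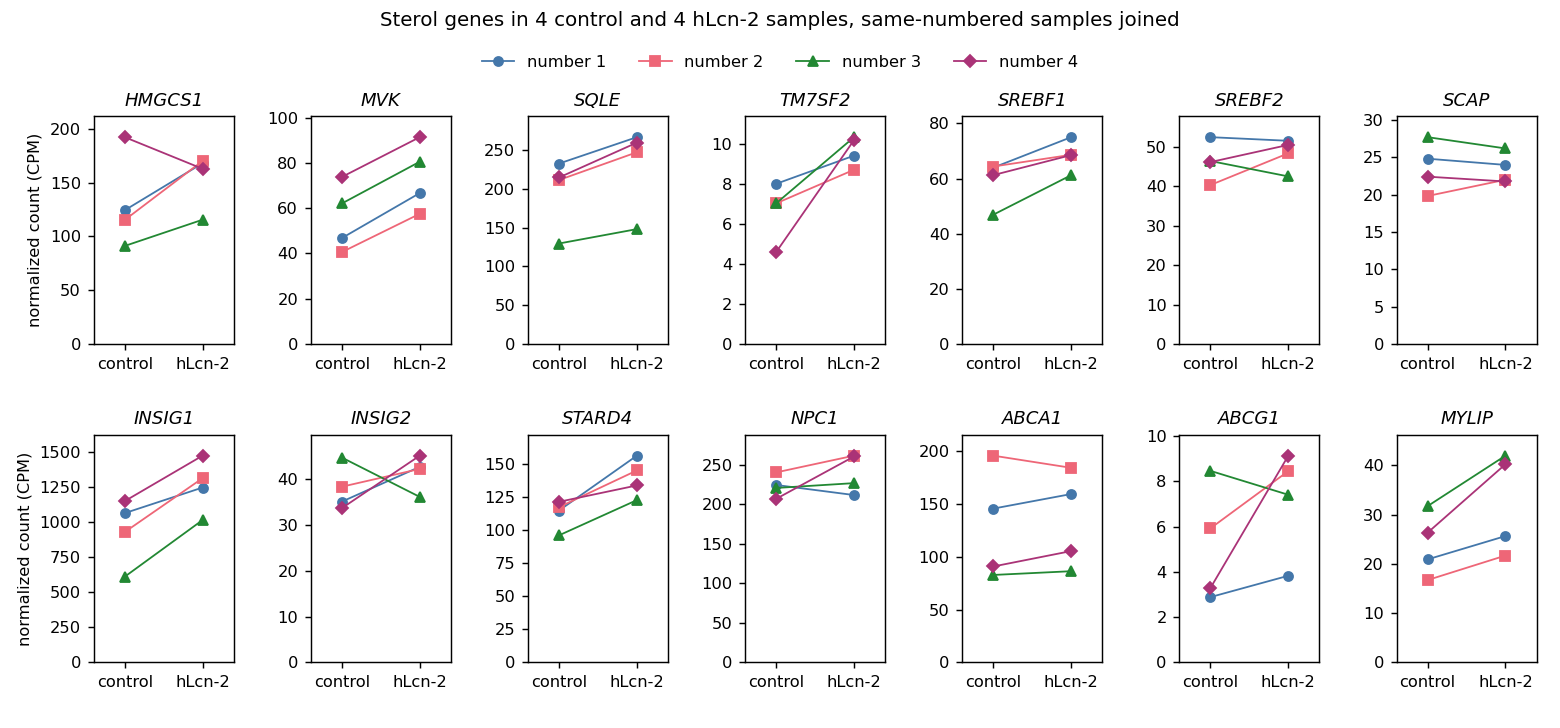
Normalized count (CPM, linear axis from 0) of 14 members in the control and hLcn-2 samples, with samples of the same number joined and marked by colour and symbol. The lines of INSIG1, MVK, SQLE, TM7SF2, SREBF1, STARD4 and MYLIP all climb, while those of SREBF2, SCAP, INSIG2, NPC1, ABCA1, ABCG1 and HMGCS1 do not all run the same way.

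Among the 7 enzymes of the mevalonate arm, 5 were higher and 2 lower after hLcn-2, with a median log2 fold change of 0.16. MVK, which phosphorylates mevalonate, was 46.8, 40.6, 62.0 and 73.8 CPM in controls and 66.6, 57.5, 80.5 and 91.3 CPM after hLcn-2. Each hLcn-2 sample lay above its control by 0.30 to 0.50 on the log2 scale, while the groups overlapped. The log2 fold change was 0.42 (standard error 0.21 without and 0.091 with the block). With the block, the adjusted p was 0.077 in limma, 0.0195 in edgeR and 0.026 in DESeq2. The exact permutation p was 0.14. MVK lies at chr12:109573255-109598125 on the plus strand, where no other gene's exons overlap it, and its 3′ UTR spans 1548 nt. In limma with the block, its adjusted p lay between 0.066 and 0.36 when a pair was left out.

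HMGCS1, which makes HMG-CoA at the entry of the pathway, was 124, 115, 91.1 and 192 CPM in controls and 168, 170, 116 and 163 CPM after hLcn-2. It was higher in pairs 1 to 3 and lower in pair 4, from 292 reads in control 4, the shallowest library, and 749 in hLcn-2 sample 4. The part of depth in this was not tested. Its adjusted p in limma with the block was 0.36 with all pairs. Leaving out a pair brought it under 0.05 only for pair 4 (0.0497), the pair that went the other way. IDI1, which isomerizes isopentenyl diphosphate, was higher in 4 of 4 pairs (log2 fold change 0.27). PMVK, which adds the second phosphate after MVK, went the other way in 4 of 4 pairs, by -0.67 to -0.13, the log2 fold change being -0.33 and the adjusted p of limma with the block 0.29. ACAT2, MVD and FDPS had log2 fold changes of 0.16, -0.10 and 0.03, and each had pairs of both signs and turned in sign when some sample was left out. FDPS, the farnesyl diphosphate synthase, has processed pseudogenes with which reads can be shared, so its counts, 14 reads or more per sample, are uncertain.

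All 10 enzymes analysed of the sterol arm had a positive log2 fold change, with a median of 0.23 and a range of 0.04 to 0.50, but none of them was called by limma, edgeR or DESeq2. The sign of NSDHL, HSD17B7 or EBP turned in 5, 1 and 2 of the alternatives that left out samples. SQLE, the squalene epoxidase, was 233, 211, 130 and 215 CPM in controls and 267, 247, 148 and 260 CPM after hLcn-2. The groups overlapped widely, yet the 4 pairs differed by nearly the same amount, 0.19 to 0.27 on the log2 scale (adjusted p 0.24 in limma with the block). TM7SF2, a sterol reductase, was 8.03, 7.05, 7.05 and 4.61 CPM in controls and 9.44, 8.73, 10.4 and 10.2 CPM after hLcn-2. The groups did not overlap, with an exact permutation p of 0.0286, the smallest that 4 samples against 4 can give. The log2 fold change of TM7SF2 was 0.50 (standard error 0.22 without and 0.19 with the block). Its adjusted p was 0.31 in limma with the block, and its lowest value rests on 7 reads in control 4.

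FDFT1, LSS, MSMO1 and SC5D, which make squalene, close its rings, remove the methyl groups at carbon 4 and desaturate the ring, were also higher in 4 of 4 pairs, with log2 fold changes of 0.24, 0.30, 0.27 and 0.11. The pairs of SC5D were the closest together among these, from 0.09 to 0.12. DHCR7, a reductase late in the pathway, was higher in 3 of 4 pairs (log2 fold change 0.26), and HSD17B7, EBP and NSDHL had log2 fold changes of 0.12, 0.09 and 0.04 with pairs of both signs. Over the 17 synthesis enzymes, the median difference was 0.15, 0.24, 0.19 and 0.18 in pairs 1 to 4.

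The level of the synthesis enzymes varied with the sample number. Relative to each gene's mean in controls, on the log2 scale, the median of the 17 enzymes was 0.22, -0.07, -0.44 and 0.29 in controls 1 to 4 and 0.24, 0.24, -0.31 and 0.57 in hLcn-2 samples 1 to 4. Both samples numbered 3 were the lowest of their group for 13 of the 17 enzymes (76.5%). The same held for 4 of the 15 other members (26.7%), for 8 of the 17 genes of fatty acid synthesis (47.1%) and for 3124 of the 15593 genes tested. Control 3 held 5799151 reads and hLcn-2 sample 3 held 2088266. The latter was the shallowest library of the hLcn-2 group, while the shallowest control was control 4, and the part of depth in this was not tested. The median log2 fold change of the enzymes without the block was 0.05 without control 3, 0.13 without hLcn-2 sample 4 and 0.37 without hLcn-2 sample 3, against 0.22 with all samples and 0.22 without both.

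**Figure D3:**
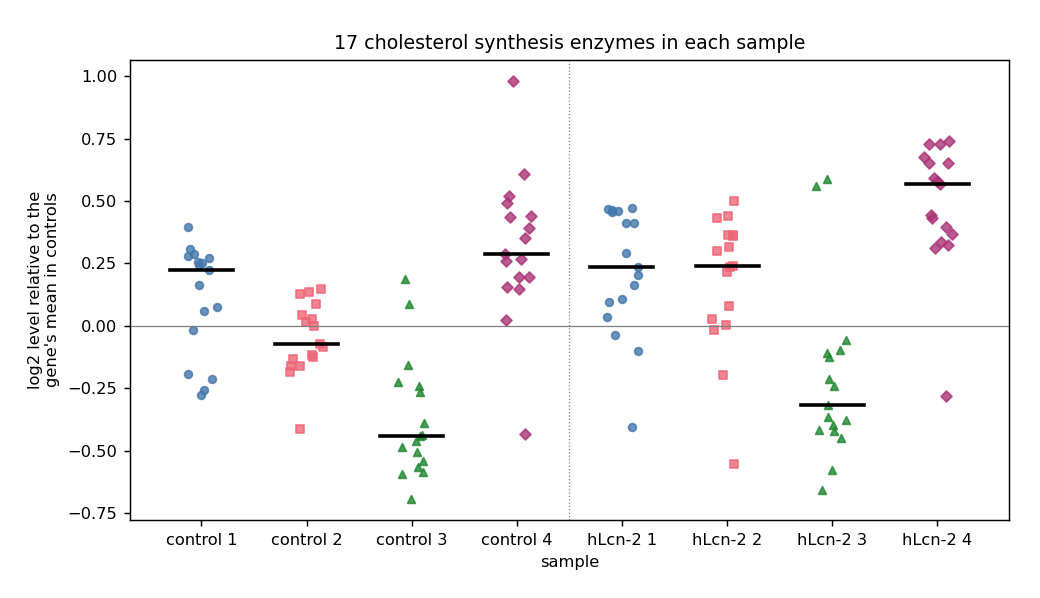
Level of each of the 17 synthesis enzymes in each sample, as log2 relative to the gene's mean in controls, with colours and symbols for the sample numbers and black bars for the median of the enzymes. The medians of control 3 and hLcn-2 sample 3 lie at -0.44 and -0.31, below all other samples, and that of hLcn-2 sample 4 is the highest, at 0.57.

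The 3 genes of sterol transport and storage were all higher on average, with a median log2 fold change of 0.16. This median was 0.059 without hLcn-2 sample 2, 0.066 without control 4 and 0.098 without pair 4, and 0.25 without hLcn-2 sample 3 and 0.26 without control 2. STARD4, a carrier of cholesterol between membranes, was 115, 117, 95.9 and 121 CPM in controls and 156, 145, 122 and 134 CPM after hLcn-2. Every hLcn-2 sample lay above every control, though hLcn-2 sample 3 and control 4 were less than 2 CPM apart, and the exact permutation p was 0.0286. The log2 fold change was 0.31 (standard error 0.13 without and 0.083 with the block). With the block, the adjusted p was 0.15 in limma, 0.065 in edgeR and 0.10 in DESeq2. An antisense gene, STARD4-AS1, overlaps its exons on the opposite strand. NPC1, which exports cholesterol from lysosomes, was 224, 240, 221 and 207 CPM in controls and 212, 261, 227 and 260 CPM after hLcn-2. The groups overlapped, with a log2 fold change of 0.10 (95% interval -0.16 to 0.37). SOAT1, which esterifies cholesterol for storage, had a log2 fold change of 0.16.

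Among the LXR receptors and their targets, 4 of 5 genes were higher, with a median log2 fold change of 0.20 (0.12 without hLcn-2 sample 2 and 0.47 without hLcn-2 sample 1), and none was called by limma, edgeR or DESeq2. MYLIP was 20.9, 16.7, 31.7 and 26.3 CPM in controls and 25.7, 21.7, 42.0 and 40.2 CPM after hLcn-2. It was higher in 4 of 4 pairs, by 0.28 to 0.59. The log2 fold change was 0.41 (standard error 0.25 without and 0.12 with the block). The adjusted p was 0.17 in limma, 0.094 in edgeR and 0.21 in DESeq2, all with the block. Here the sample numbered 3 was the highest of each group, unlike in most synthesis enzymes. ABCA1 was 146, 196, 82.8 and 90.9 CPM in controls and 159, 184, 86.4 and 105 CPM after hLcn-2. These values followed the sample numbers closely, and the log2 fold change was 0.08 (95% interval -0.56 to 0.72 without the block and -0.10 to 0.26 with it). ABCG1 was 2.89, 5.93, 8.46 and 3.29 CPM in controls and 3.83, 8.45, 7.41 and 9.13 CPM after hLcn-2. Its log2 fold change of 0.46 had a standard error of 0.34, and its value in control 4 rests on 5 reads. The receptor genes NR1H2 and NR1H3 had log2 fold changes of 0.20 and -0.08.

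Other genes near the pathway were compared as lists. The 9 genes of the isoprenoid branches, which use mevalonate products for prenylation, dolichol and ubiquinone, had a median log2 fold change of 0.05, with 0 genes called by limma, edgeR or DESeq2 with the block and none at an unadjusted p of 0.05 or less. COQ2 (0.13), PGGT1B (0.10) and FNTB (0.12) had the smallest p-values in limma without the block. The 10 regulators of sterol sensing and turnover had a median of 0.01 with 0 called and 1 at an unadjusted p of 0.05 or less in limma with the block, ERLIN1 (0.24), a membrane protein that binds cholesterol, which was higher in 4 of 4 pairs. PGRMC1 (0.14) and RNF139 (0.13) had the next smallest p-values in limma without the block.

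Of the 26 other genes of sterol handling 21 were tested, with a median of 0.04 and 0 called. In limma with the block, 2 were higher and 2 lower at an unadjusted p of 0.05 or less (9.52% each, against 6.65% and 5.53% of all genes). Within the pairs, 4 were higher and 3 lower in 4 of 4 (19.0% and 14.3%, against 9.93% and 10.9% of all genes). LIPA, the lysosomal lipase that frees cholesterol from its esters (0.23), and ERG28 (0.29) were higher in 4 of 4 pairs, and RXRA, the partner receptor of LXR (-0.26), and NCEH1, a cholesterol ester hydrolase (-0.29), were lower in all of them. Fatty acid synthesis, the other pathway under SREBP, had a median of 0.10 over 17 genes. At an unadjusted p of 0.05 or less in limma with the block, 5 were higher (29.4%, against 40.6% of members) and 0 lower. In 4 of 4 pairs, 5 were higher (29.4%, against 37.5% of members) and 1 lower (5.88%). For the members other than synthesis enzymes, both shares of higher genes were 26.7%. Among the 17 genes FADS2 and SCD, desaturases, were called by limma, edgeR and DESeq2 with the block (log2 fold changes 0.49 and 0.50, adjusted p 0.032 each in limma), and both were higher in 4 of 4 pairs. The next smallest p was that of ACSS2 (0.27) without the block and that of FADS1 (0.25) with it. No difference between lists was tested.

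**Figure D4:**
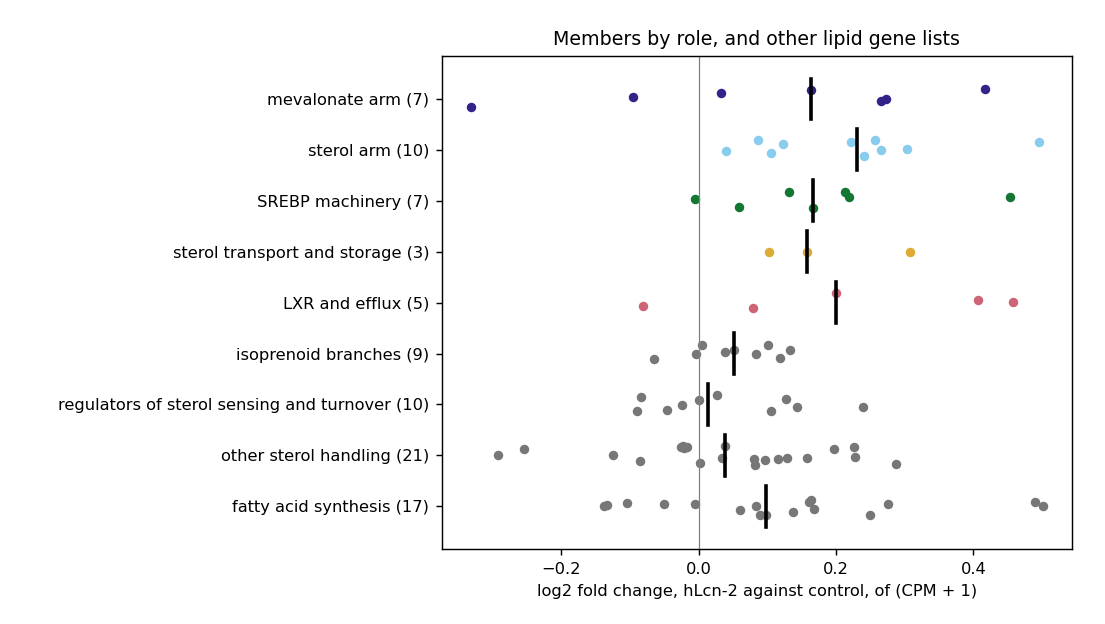
Log2 fold change, hLcn-2 against control, of CPM + 1, for each tested gene of the 5 groups of members (coloured) and of 4 other lipid gene lists (grey), with the number of genes tested in parentheses and black bars for the medians. The member groups have medians of 0.16 to 0.23, and the other lists of 0.01 to 0.10.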

How the data were processed

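Transcripts of 4 control and 4 hLcn-2 samples of CAKI1 cells were sequenced with a QuantSeq 3′ kit with unique molecular identifiers. The authors used STAR for alignment to GRCh38, collapsed reads by identifier, obtained counts per gene with HTSeq and processed the counts with edgeR. The deposited values are a signal, normalized counts on the scale of CPM, and every value of a sample is a multiple of 1 common step. Divided by that step, 100.0% of the 134256 values were whole reads (within 0.01), and these recovered reads gave the depth, 1501563 to 13953090 per sample.

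Groups and sample numbers were taken from the labels. Log2(CPM + 1) was fitted by limma 3.58.1 (R 4.3.3) with an intensity trend, two-sided, over the 15593 genes that reached 1 CPM in 2 or more samples, with Benjamini-Hochberg adjustment over all of them. This scale understates the changes of genes with few reads. The labels do not say whether samples came from separate cultures, so p-values without the block measure the spread between these samples. Those with the block measure the spread of the differences between same-numbered samples. Deviations from the group means correlated across genes between same-numbered samples, with r of 0.48, 0.59, 0.61 and 0.31 in pairs 1 to 4, and 8 of 8 samples were most like their own number, so the number was also fitted as a block. Single genes were tested with exact permutation tests, which did not use the sample numbers. The alternatives were pseudocounts of 0.1 and 5, no filter, a mean of at least 10 CPM, TMM factors, no trend, DESeq2 1.42.0 and edgeR 4.0.16 on recovered reads, each with and without the block, and leaving out samples or pairs. The models were tested on simulated data whose changes were larger than those of the members. That test therefore does not show how reliably differences as small as these are called. The members and lists, and the members given sample by sample, were chosen with earlier results of these data known. Sample values are given for members called in any fit, for those whose groups did not overlap, and for 12 listed by name. Other members are given by fold change, and other lists by counts, the median and the 3 genes of smallest p in limma without the block, with NCEH1 and FADS1 named after their values were seen. A gene of these lists is not reported here. Annotation came from GENCODE 44, and 22 of the 32 members had no overlap with exons of another gene.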

Additional observations from a re-analysis of the deposited data

Results flagged for a closer look

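A sample stood far from the other 3 of its group in 5 of the 64 groups of 4 examined. For independent groups, chance alone gives about 1 in 20, or 3.2 here, but these groups share the same 8 samples and are not independent. The value given is the distance to the next sample divided by the group's range. HMGCS1 in hLcn-2 sample 3 lay below the others (0.866), at 116 CPM and 234 reads. SQLE in the same sample also lay below (0.836), at 148 CPM and 300 reads. IDI1 in control 3 lay below the other controls (0.873), at 155 CPM and 882 reads. MVD and FDPS in control 4 lay above the other controls (0.834 and 0.839), at 30.3 and 19.1 CPM, from 46 and 29 reads in the shallowest library. All 5 genes are synthesis enzymes, which make up 17 of the 32 members, and the 3 low values belong to the samples numbered 3. The part of the sample or of its depth in these values was not tested.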

How the results depend on the processing

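Without the block 0 genes were called under any alternative. With the block limma called 44 genes, edgeR 233 and DESeq2 173, and limma called between 0 and 58 when a sample or pair was left out (14, 3, 0 and 58 without pairs 1 to 4). The number of members called was 2 in edgeR and 2 in DESeq2 with the replicate block, and between 0 and 2 when a sample or pair was left out. The median log2 fold change of the synthesis enzymes lay between 0.047 and 0.370 when samples were left out, and between 0.19 and 0.25 with all samples. Both ends of the wider range came from leaving out 1 sample without the block, which leaves its pair incomplete. When whole pairs were left out with the block, it was 0.23, 0.18, 0.22 and 0.18 without pairs 1 to 4. That of the LXR and efflux genes lay between 0.12 and 0.47 when samples were left out, the highest without hLcn-2 sample 1, that of the SREBP machinery between 0.089 and 0.21, and that of sterol transport and storage between 0.059 and 0.26. The lowest and the highest median of the synthesis enzymes came without control 3 and without hLcn-2 sample 3. The sign held under every alternative for 23 of the 32 members. With all samples it turned for SCAP (0.0059 with TMM factors, and with the block 0.017 in edgeR and 0.0038 in DESeq2) and for MVD (0.026 in edgeR and 0.00085 in DESeq2). Leaving out samples turned SCAP (-0.084 to 0.070), MVD (-0.344 to 0.092), FDPS (-0.17 to 0.36), NSDHL (-0.091 to 0.244), ACAT2 (-0.035 to 0.368), HSD17B7 (-0.079 to 0.303), EBP (-0.11 to 0.26), SREBF2 (-0.0072 to 0.12) and ABCA1 (-0.10 to 0.31), and the cause was not tested. The block changed no other call of a member than those of INSIG1 and MVK in edgeR and DESeq2, and, in limma, those of INSIG1 without pair 1 or pair 4 and of HMGCS1 without pair 4. TM7SF2 and ABCG1 have no value under the filter that asks for a mean of 10 CPM. In the shallowest library 3 reads are worth 1.98 CPM, which limits the low members ABCG1, TM7SF2 and FDPS.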
